A study of Mus musculus with 9 samples.

Results

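The genes described here are 36 aminoacyl-tRNA synthetases of the mouse, 20 that act in the cytosol and 16 that act in mitochondria, chosen by their symbols, with earlier results of these data known but with no measured value in the rule. All 36 were found among the 32285 gene identifiers of the count tables, with Mars1 under its older symbol Mars. Each of them passed the filter of at least 5 counts in at least 3 libraries, which left 17173 genes for testing. RNA was sequenced from primary stromal vascular fraction (SVF) cells, the adipocyte precursors and other cells that remain once fat is digested and the floating adipocytes are removed, isolated from subcutaneous white fat of 4- to 6-day-old mice of WT genotype. MIZ-treated cells were differentiated for 6 days with 25 µM mizoribine (MIZ), an inhibitor of inosine monophosphate dehydrogenase and so of purine synthesis, and vehicle cells were differentiated for 6 days with DMSO. Both groups received insulin, dexamethasone and IBMX and were then kept in medium with insulin, the thiazolidinediones troglitazone and rosiglitazone, and triiodothyronine. Undifferentiated cells were not given this differentiation protocol. There were 3 libraries in each group, called biological replicates by the submitters. The p-values set a difference between groups against the spread between cultures within groups, estimated over all 9 libraries.

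An aminoacyl-tRNA synthetase joins 1 amino acid to its tRNAs, the step that sets the genetic code and feeds both ribosomes. Nuclear genes encode the enzymes of both compartments, and most amino acids have 1 gene for the cytosol and another, its symbol ending in 2, for the mitochondrial matrix. Gars and Kars are exceptions, since each encodes a cytosolic and a mitochondrial form, and mitochondria make glutaminyl-tRNA by another route, through an amidotransferase. In the cytosol a group of these enzymes sits in the multisynthetase complex, held by 3 scaffold proteins. Transcription of many cytosolic synthetase genes is known to respond to ATF4, the factor induced when amino acids run short, whereas the mitochondrial enzymes serve the translation of the respiratory chain subunits encoded in mitochondrial DNA.

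The libraries held between 28760721 and 55288455 counts, and the shallowest was vehicle replicate 1. Levels are CPM, a gene's counts scaled to a common library size, after TMM normalization, and every test comes from 1 edgeR quasi-likelihood fit of the 9 libraries, with Benjamini-Hochberg adjustment across the 17173 genes and a threshold of 0.05. GEO's tissue label reads primary adipocytes for all 9 libraries. The 6 adipocyte markers Adipoq, Pparg, Plin1, Cidec, Fabp4 and Lep, the last of them at no more than 0.0511 CPM in any group mean, summed to 976 ± 114 CPM in MIZ-treated, 13020 ± 373 CPM in vehicle and 13.3 ± 0.932 CPM in undifferentiated cells (SD, n = 3 each). Sums of the 8 preadipocyte and stromal markers were 6759 ± 883, 3764 ± 416 and 15030 ± 631 CPM in the same order, those of the 5 smooth muscle and pericyte markers 4069 ± 738, 108 ± 5.89 and 498 ± 49.4 CPM, and those of the 6 leukocyte markers 464 ± 80.2, 264 ± 75.8 and 686 ± 43.4 CPM, among which Cd3e had no count. Single genes carry some of these sums. Col1a1 had 5698 CPM in MIZ-treated, 3395 CPM in vehicle and 13870 CPM in undifferentiated cells. Of the 8 preadipocyte and stromal markers 4 were higher with MIZ than with vehicle, 1 was lower (Cd34) and 3 did not pass. Over all genes 35.9% were higher and 35.1% lower. Acta2 had 3622 CPM in MIZ-treated and 34.6 CPM in vehicle cells, beside Cspg4 with 12.5 and 63.3 CPM. Adgre1 had 399 and 191 CPM, beside Ptprc with 26.2 and 29.0 CPM and Cd68 with 38.2 and 44.3 CPM. Neither Ptprc nor Cd68 passed between MIZ and vehicle. Endothelial markers summed to 5.14, 9.16 and 93.4 CPM and Schwann cell markers to 31.0, 9.72 and 15.7 CPM. The sums of skeletal muscle and of epithelial markers did not exceed 0.0697 CPM in any group mean. The makeup of the cultures thus differed between the groups along with the synthetase genes, and the part it had in the results was not tested. In bulk RNA, fewer cells of a type and less RNA per cell cannot be told apart.

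With MIZ, the cells held less synthetase RNA of both classes than with vehicle, and the difference was larger for the mitochondrial class. The 20 cytosolic genes summed to 2933, 2992 and 3259 CPM in MIZ-treated cells, against 4047, 3719 and 3565 CPM in vehicle and 1953, 1921 and 1898 CPM in undifferentiated cells. The 16 mitochondrial genes summed to 305, 311 and 316 CPM in MIZ-treated cells, against 564, 559 and 551 CPM in vehicle and 276, 282 and 263 CPM in undifferentiated cells. The 3 groups did not overlap in either sum, and MIZ-treated cells lay between the others. For the cytosolic genes they were somewhat nearer to vehicle, whereas for the mitochondrial genes they were close to undifferentiated cells. The ratio of the cytosolic to the mitochondrial sum was 9.85 ± 0.405 in MIZ-treated, 6.77 ± 0.361 in vehicle and 7.04 ± 0.197 in undifferentiated cells (SD, n = 3 each). This ratio was above every other library in all 3 MIZ libraries, while the vehicle and undifferentiated libraries overlapped. When each gene was first divided by the length of its annotated exons the ratios were 10.9, 7.47 and 7.73. Scaled to total counts, the cytosolic sums were 3130 ± 151, 3511 ± 218 and 2024 ± 12.6 CPM and the mitochondrial sums 318 ± 6.29, 519 ± 4.35 and 288 ± 8.67 CPM (SD, n = 3 each), in the same order of groups.

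**Figure D1:**
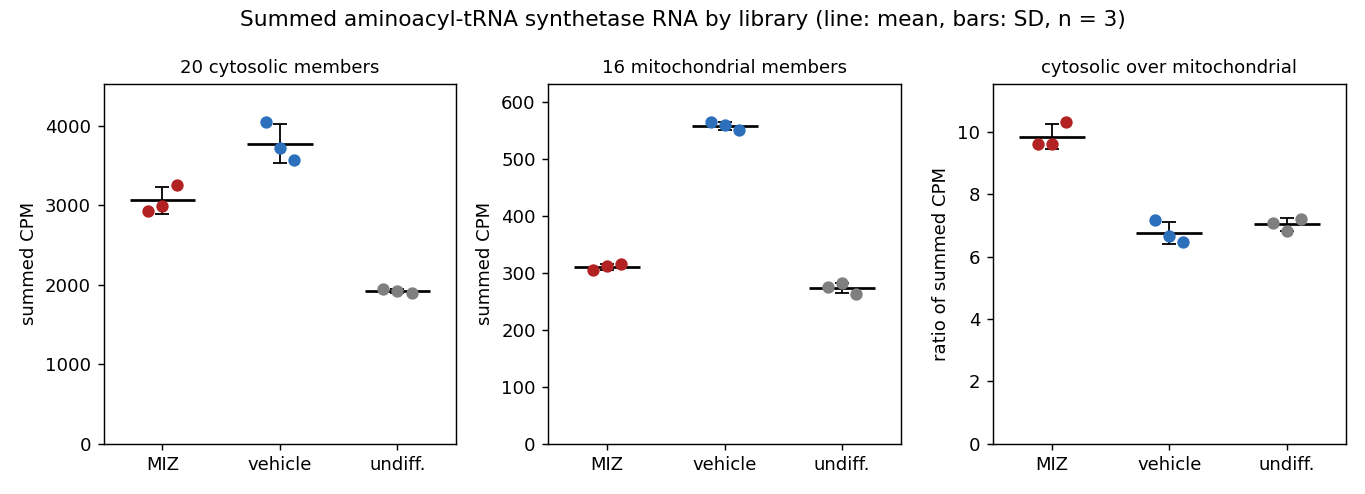
Summed CPM of the 20 cytosolic (left) and 16 mitochondrial (middle) synthetase genes and the ratio of the sums (right, no unit) in each library of MIZ-treated, vehicle and undifferentiated cells, with points for libraries, lines for means and bars for SD. MIZ lies between the other groups in both sums, and its ratio, 9.61 to 10.32, is above that of every other library.

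Between MIZ and vehicle, 24 of the 36 genes were lower, 3 were higher and 9 did not pass the test. Over all genes 71.0% passed in this comparison, 35.1% lower and 35.9% higher, and the median change was 0.02 on the log2 scale. Of the mitochondrial class 14 of 16 genes were lower and none higher (median log2 fold change -0.82), and 6 of its genes fell by more than 2-fold. The cytosolic class was lower in 10 of 20 genes and higher in 3, with a median of -0.15, and 2 of its genes fell by more than 2-fold. The share of all genes that fell by more than 2-fold was not counted. The libraries of MIZ and of vehicle were apart in 14 mitochondrial and 13 cytosolic genes, beside 72.8% of all genes. Scaling to total counts moved the median of all genes to 0.16, and without vehicle replicate 1, as with that scaling, the count of higher cytosolic genes was 7 in place of 3, the same 7 genes in both cases.

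Differentiation with vehicle raised nearly the whole family. Of the 20 cytosolic genes 18 were higher in vehicle than in undifferentiated cells and none was lower (median log2 fold change 0.86), and of the 16 mitochondrial genes 14 were higher and none lower (median 1.08). Over all genes 77.7% passed, 36.2% higher and 41.5% lower, with a median of -0.08. In this comparison 6 cytosolic and 9 mitochondrial genes rose by more than 2-fold, a share that was not counted over all genes. Libraries did not overlap for 18 cytosolic and 14 mitochondrial genes, beside 80.7% of all genes. The comparison shares its vehicle libraries with that of MIZ against vehicle, so that opposite signs in the pair are not independent. Scaled to total counts, which moved the median of all genes to -0.25, Qars was lower in vehicle than in undifferentiated cells (-0.18, edgeR adjusted p = 0.0125), and so was Cars2 (-0.30, edgeR adjusted p = 0.00355). Without vehicle replicate 1 Cars2 was also lower (-0.19, edgeR adjusted p = 0.0141).

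Set against undifferentiated cells, MIZ-treated cells kept higher levels of most cytosolic genes and of fewer mitochondrial ones. Cytosolic genes were higher in 18 of 20 and lower in 1 (median log2 fold change 0.55), and mitochondrial genes were higher in 7 of 16 and lower in 1, with a median of 0.18 on that scale. Over all genes 67.0% passed, 33.7% higher and 33.3% lower, with a median of 0.00 on the log2 scale. Libraries did not overlap for all 20 cytosolic and for 10 mitochondrial genes, beside 74.4% of all genes. The count of 1 lower mitochondrial gene varied between 0 and 3 when libraries were left out in turn, with 0 without MIZ replicate 1, without MIZ replicate 2 or without undifferentiated replicate 2, and 3 without vehicle replicate 1. The count of lower cytosolic genes was 2 without vehicle replicate 1.

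**Figure D2:**
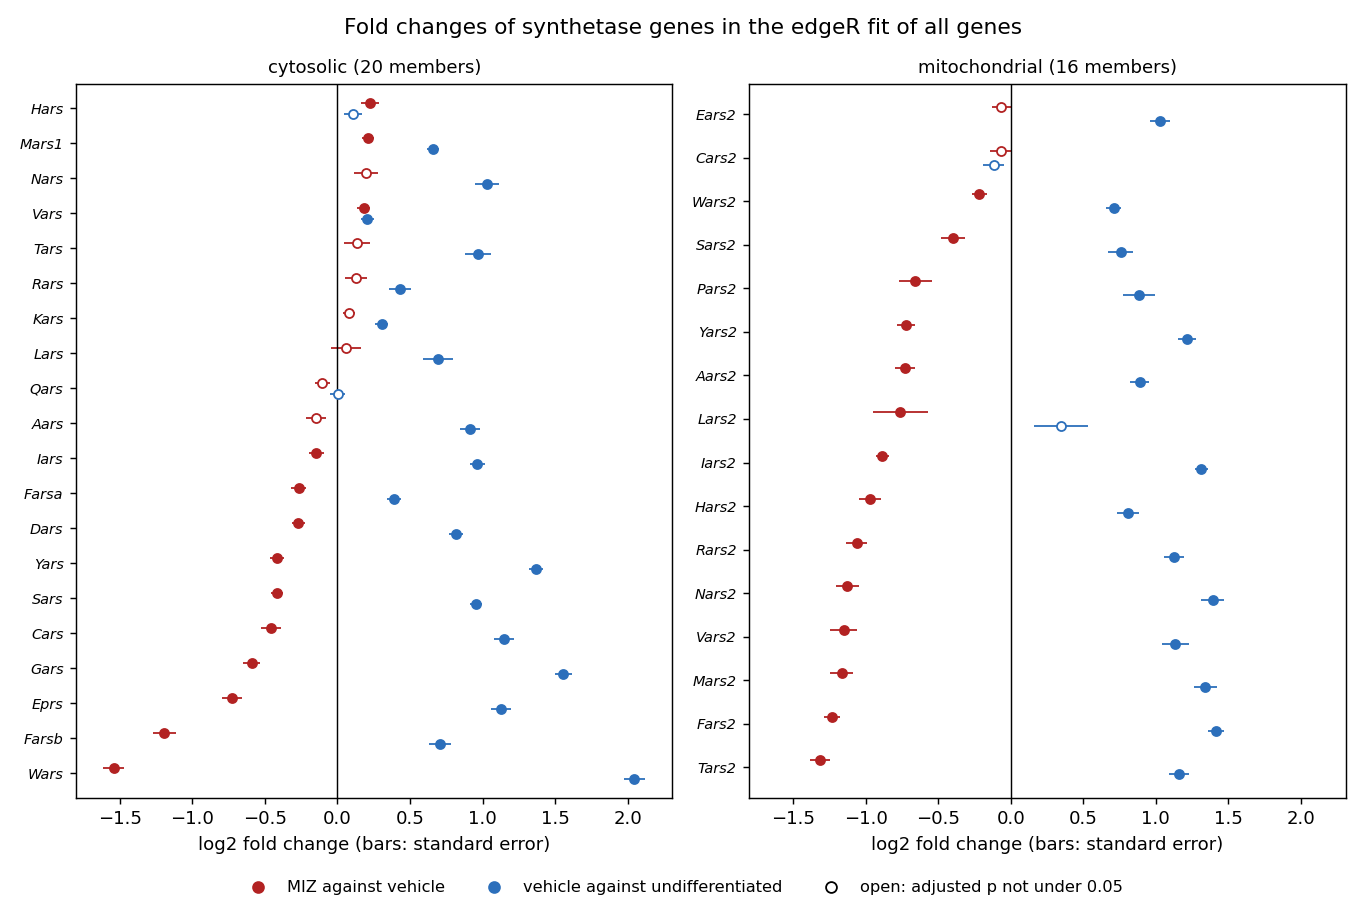
Log2 fold change of each synthetase gene for MIZ against vehicle (red) and vehicle against undifferentiated cells (blue) in cytosolic (left) and mitochondrial (right) genes, with standard errors as bars and open points where the adjusted p was not under 0.05. For MIZ against vehicle the mitochondrial genes lie between -1.32 and -0.07 and the cytosolic genes between -1.54 and 0.22, and for vehicle against undifferentiated cells most of both classes lie right of 0.

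Promoter sequence was at hand for 27 of the 36 genes, as RefSeq windows of GRCm38.p6 from 250 bases before to 50 bases after the start of transcription. Cars, Hars, Lars, Nars, Rars, Vars, Wars, Hars2 and Pars2 have no entry in that table. The core of the C/EBP-ATF response element, the composite site known to bind ATF4 and written TGATGNAA on either strand, was in the windows of 5 of 13 cytosolic genes (38.5%) and in none of 14 mitochondrial genes, beside 4.51% of 27025 genes with a window. The NRF1 core CGCATGCG, of a factor known for nuclear genes of mitochondrial function, was in none of the cytosolic and in 2 of the mitochondrial genes (14.3%), beside 2.07% of all. The E-box CACGTG was in 4 cytosolic (30.8%) and 1 mitochondrial gene (7.14%), beside 8.09%, and the ETS core CCGGAAGT in 2 (15.4%) and 1 (7.14%), beside 4.31%. Matches of different motifs did not overlap in these windows. A match describes the letters and does not show binding.

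The 5 cytosolic genes with a TGATGNAA match and the 2 mitochondrial genes with an NRF1 core are shown from 120 bases before to 20 bases after the start, 5′ to 3′ along the gene, with the matches of TGATGNAA or CGCATGCG in capitals, so that the place of each motif near the start can be read. Aars lies on the plus strand of chr8:111033722-111033861, Gars on the plus strand of chr6:55037881-55038020, Iars on the plus strand of chr13:49682010-49682149, Tars on the minus strand of chr15:11399639-11399778, Yars on the plus strand of chr4:129189783-129189922, Vars2 on the minus strand of chr17:35667573-35667712 and Wars2 on the plus strand of chr3:99140970-99141109.
Aars: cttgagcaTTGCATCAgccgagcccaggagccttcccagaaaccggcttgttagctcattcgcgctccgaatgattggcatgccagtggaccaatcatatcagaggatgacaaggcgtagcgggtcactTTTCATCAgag
Gars: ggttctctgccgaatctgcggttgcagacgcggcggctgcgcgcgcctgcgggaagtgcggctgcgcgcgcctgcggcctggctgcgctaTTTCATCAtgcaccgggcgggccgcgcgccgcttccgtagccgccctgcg
Iars: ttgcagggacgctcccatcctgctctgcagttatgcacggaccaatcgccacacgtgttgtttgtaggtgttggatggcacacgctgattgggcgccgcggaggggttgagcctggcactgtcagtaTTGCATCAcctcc
Tars: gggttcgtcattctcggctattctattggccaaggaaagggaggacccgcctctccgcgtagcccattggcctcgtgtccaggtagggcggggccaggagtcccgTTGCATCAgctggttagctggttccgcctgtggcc
Yars: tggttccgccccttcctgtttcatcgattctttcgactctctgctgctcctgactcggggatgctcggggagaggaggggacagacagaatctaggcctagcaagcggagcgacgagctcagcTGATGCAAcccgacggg
Vars2: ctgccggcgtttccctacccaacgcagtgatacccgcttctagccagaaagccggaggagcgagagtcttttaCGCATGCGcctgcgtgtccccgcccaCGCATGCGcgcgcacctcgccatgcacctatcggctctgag
Wars2: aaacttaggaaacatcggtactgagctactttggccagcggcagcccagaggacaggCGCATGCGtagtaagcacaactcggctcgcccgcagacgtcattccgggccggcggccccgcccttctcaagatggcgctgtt

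The match in Gars lay at bases -30 to -23 and that in Tars at -15 to -8, while those in Iars (8 to 15), Yars (4 to 11) and 1 of the matches in Aars (10 to 17) lay just past the start and the other in Aars at -112 to -105. Vars2 held the NRF1 core at -47 to -40 and at -21 to -14, and Wars2 at -63 to -56. The 5 cytosolic genes with the match had log2 fold changes of 0.91 (Aars), 1.56 (Gars), 0.96 (Iars), 0.97 (Tars) and 1.37 (Yars) for vehicle against undifferentiated cells, and of -0.15, -0.59, -0.15, 0.13 and -0.42 for MIZ against vehicle. All 5 rose in vehicle, as did 18 of the 20 cytosolic genes, and with MIZ Gars, Iars and Yars fell while Aars and Tars did not pass. Vars2 and Wars2 had 1.13 and 0.71 for vehicle against undifferentiated cells, and -1.15 and -0.22 for MIZ against vehicle.

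Among cytosolic genes Wars, which encodes tryptophanyl-tRNA synthetase and is known as an interferon-inducible gene, changed most in both directions. It lies on the minus strand of chr12:108860030-108894174 (GRCm38). Wars was at 75.1, 75.6 and 81.0 CPM in MIZ-treated cells, against 254, 215 and 206 CPM in vehicle and 54.3, 53.5 and 55.4 CPM in undifferentiated cells. The MIZ libraries lay far below the vehicle libraries and above the undifferentiated ones, with no overlap. Its log2 fold change was -1.54 for MIZ against vehicle (standard error 0.0729, edgeR adjusted p = 8.49e-09) and 2.05 for vehicle against undifferentiated cells (standard error 0.0740, edgeR adjusted p = 6.55e-10). Per kilobase of exon, Wars ranked 11 of 20 cytosolic genes in MIZ-treated, 3 in vehicle and 12 in undifferentiated cells.

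Farsb and Farsa encode the β and α subunits of cytosolic phenylalanyl-tRNA synthetase, which are joined in 1 enzyme, and their RNAs differed in how far they moved. Farsb (chr1:78417975-78488897, minus strand) was at 28.0, 28.4 and 33.5 CPM in MIZ-treated cells, against 72.3, 70.6 and 63.1 CPM in vehicle and 42.1, 44.1 and 39.9 CPM in undifferentiated cells. MIZ was thus below both other groups in every library, and Farsb was the 1 cytosolic gene that was lower in MIZ-treated than in undifferentiated cells (log2 fold change -0.49, standard error 0.0793, edgeR adjusted p = 0.000244). Against vehicle its log2 fold change was -1.20 (standard error 0.0795, edgeR adjusted p = 1.44e-07). Farsa was at 30.7, 29.2 and 29.7 CPM in MIZ-treated cells, against 35.1, 35.9 and 36.9 CPM in vehicle and 27.5, 26.4 and 28.4 CPM in undifferentiated cells. It fell by 0.27 on the log2 scale with MIZ (standard error 0.0496, edgeR adjusted p = 0.000561) and had the lowest level per kilobase of all cytosolic genes in each group. The difference of Farsa between MIZ-treated and undifferentiated cells (0.12, edgeR adjusted p = 0.0459) passed in the fit of all 9 libraries and lost the threshold in 8 of the 9 fits with 1 library left out, with adjusted p between 0.0541 and 0.19 in them.

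The other cytosolic genes that fell most with MIZ were Eprs, Gars, Cars and Sars. Eprs, whose product charges tRNA with glutamate and with proline in the multisynthetase complex, had 392, 405 and 449.6 CPM in MIZ-treated cells, against 747, 676 and 640.0 CPM in vehicle and 319.6, 315 and 309.8 CPM in undifferentiated cells (MIZ against vehicle -0.73, standard error 0.0677, edgeR adjusted p = 2.45e-06). It was the 1 gene of the complex to fall by over 0.5 on the log2 scale. Gars, for glycine, had 250.2, 254 and 288 CPM in MIZ-treated cells, against 411, 393 and 389 CPM in vehicle and 135, 139 and 132 CPM in undifferentiated cells (-0.59, standard error 0.0579, edgeR adjusted p = 3.69e-06). Gars had the highest level per kilobase of exon in all 3 groups, at 84.6 ± 6.71, 128 ± 3.72 and 43.3 ± 1.16 CPM per kilobase in MIZ-treated, vehicle and undifferentiated cells (SD, n = 3 each). Cars, for cysteine, had 69.5, 73.9 and 85.8 CPM in MIZ-treated cells, against 109, 104 and 102 CPM in vehicle and 47.4, 47.8 and 47.1 CPM in undifferentiated cells (-0.46, standard error 0.0690). Sars, for serine, had 225, 223 and 231 CPM in MIZ-treated cells, against 303, 301 and 302 CPM in vehicle and 162, 152 and 153 CPM in undifferentiated cells (-0.42, standard error 0.0407). In all 4 genes the MIZ libraries lay between the other groups with no overlap.

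Yars, Dars and Iars, for tyrosine, aspartate and isoleucine, fell less, with log2 fold changes of -0.42, -0.27 and -0.15 for MIZ against vehicle and means of 107, 76.1 and 217 CPM in MIZ-treated, 143, 91.6 and 240.4 CPM in vehicle and 55.5, 52.0 and 123 CPM in undifferentiated cells. For Iars the libraries of MIZ and vehicle overlapped. Iars did not pass without MIZ replicate 1 (-0.11, edgeR adjusted p = 0.0887), without MIZ replicate 2 (-0.13, edgeR adjusted p = 0.0776) or when scaled to total counts (-0.01, edgeR adjusted p = 0.865).

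Hars, Mars1 and Vars were the cytosolic genes that rose with MIZ, each by little. Hars, for histidine, had 45.5, 42.0 and 46.5 CPM in MIZ-treated cells, against 41.4, 37.2 and 36.6 CPM in vehicle and 35.7, 36.8 and 34.4 CPM in undifferentiated cells, a log2 fold change of 0.22 against vehicle (standard error 0.0616, edgeR adjusted p = 0.00759). Between vehicle and undifferentiated cells Hars differed by 0.11 (edgeR adjusted p = 0.139), and this value was -0.07 when scaled to total counts. Mars1, for methionine and the initiator tRNA, had 101, 99.3 and 103 CPM in MIZ-treated cells, against 88.1, 89.4 and 85.0 CPM in vehicle and 57.4, 54.2 and 54.5 CPM in undifferentiated cells (0.21, standard error 0.0420, edgeR adjusted p = 0.00102). Vars, for valine, had 121, 119 and 131 CPM in MIZ-treated cells, against 111, 108 and 109 CPM in vehicle and 97.3, 92.6 and 93.8 CPM in undifferentiated cells (0.18, standard error 0.0468, edgeR adjusted p = 0.00514). In each of the 3 genes all MIZ libraries were above all vehicle libraries. The log2 fold change of Vars for vehicle against undifferentiated cells, 0.21, was 0.03 when scaled to total counts, with an edgeR adjusted p of 0.561.

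The remaining 7 cytosolic genes did not pass between MIZ and vehicle, though 6 of them were higher in both differentiated groups than in undifferentiated cells. Nars, for asparagine, had 321, 342 and 379 CPM in MIZ-treated cells, against 342, 291 and 277 CPM in vehicle and 149.5, 151 and 144 CPM in undifferentiated cells. With 1.23 it had the largest log2 fold change of all 36 genes for MIZ against undifferentiated cells (standard error 0.0825, edgeR adjusted p = 2.59e-07), and MIZ against vehicle was near the threshold (0.20, standard error 0.0812, edgeR adjusted p = 0.0501). Tars, for threonine, had 124, 130.2 and 147 CPM in MIZ-treated cells, against 139.8, 119 and 108 CPM in vehicle and 65.0, 60.4 and 61.6 CPM in undifferentiated cells, with 1.10 for MIZ against undifferentiated cells (standard error 0.0921, edgeR adjusted p = 1.4e-06). In both genes the vehicle libraries spread widely, with replicate 1 the highest.

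Aars, for alanine, showed the same spread, with 391, 387 and 414 CPM in MIZ-treated cells, against 489.8, 432 and 398 CPM in vehicle and 242, 228 and 231 CPM in undifferentiated cells (MIZ against vehicle -0.15, edgeR adjusted p = 0.0817). Without vehicle replicate 3 it passed as lower (-0.23, edgeR adjusted p = 0.00702). Lars, for leucine and known as a leucine sensor of the mTORC1 pathway, had 131, 136 and 165 CPM in MIZ-treated cells, against 159, 135 and 121 CPM in vehicle and 86.4, 85.7 and 84.8 CPM in undifferentiated cells, and its log2 fold change of 0.06 was -0.06 without MIZ replicate 3 and -0.05 without vehicle replicate 3. Rars, for arginine, had 97.0, 102 and 105 CPM in MIZ-treated cells, against 105, 88.5 and 84.2 CPM in vehicle and 66.7, 70.9 and 68.5 CPM in undifferentiated cells (MIZ against vehicle 0.13, standard error 0.0746). Kars, for lysine, had 88.2, 87.3 and 89.6 CPM in MIZ-treated cells, against 87.2, 81.6 and 82.1 CPM in vehicle and 69.6, 67.5 and 66.1 CPM in undifferentiated cells (0.08, standard error 0.0428). Without vehicle replicate 1 Nars, Rars, Tars and Kars passed as higher with MIZ, with log2 fold changes of 0.28, 0.22, 0.23 and 0.10. Nars also passed without MIZ replicate 1 (0.25, edgeR adjusted p = 0.0265).

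Qars, for glutamine, was the cytosolic gene that passed in none of the comparisons in the edgeR fit of all 9 libraries with TMM. It had 61.6, 60.9 and 57.9 CPM in MIZ-treated cells, against 60.1, 67.5 and 66.4 CPM in vehicle and 64.9, 65.8 and 63.2 CPM in undifferentiated cells. The 9 libraries thus lay within a narrow range, and those of vehicle overlapped with the libraries of both other groups. Its log2 fold changes were -0.11 for MIZ against vehicle (0.03 when scaled to total counts), 0.00 for vehicle against undifferentiated cells and -0.10 for MIZ against undifferentiated cells, with standard errors of 0.0525, 0.0522 and 0.0523. Without vehicle replicate 1 Qars passed as lower with MIZ, against vehicle by -0.16 (edgeR adjusted p = 0.00653) and against undifferentiated cells by -0.10 (edgeR adjusted p = 0.038). It also passed as lower against vehicle with RLE scaling (-0.13, edgeR adjusted p = 0.0437) and with DESeq2 (-0.13, adjusted p = 0.0438), and against undifferentiated cells in a fit of these 6 libraries alone (-0.11, edgeR adjusted p = 0.0352) and when scaled to total counts (-0.14, edgeR adjusted p = 0.0383).

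Divided by place in the cell, the 8 genes of the multisynthetase complex (Dars, Eprs, Iars, Kars, Lars, Mars1, Qars and Rars) had a median log2 fold change of -0.02 for MIZ against vehicle, with 1 higher and 3 lower, and the 12 cytosolic genes outside the complex had -0.34, with 2 higher and 7 lower, beside 35.9% of all genes higher and 35.1% lower. For vehicle against undifferentiated cells the medians were 0.68 and 0.96. By the fold of the catalytic domain, class I and class II cytosolic enzymes had medians of -0.11 and -0.21 for MIZ against vehicle, and mitochondrial ones of -0.76 and -0.97.

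**Figure D3:**
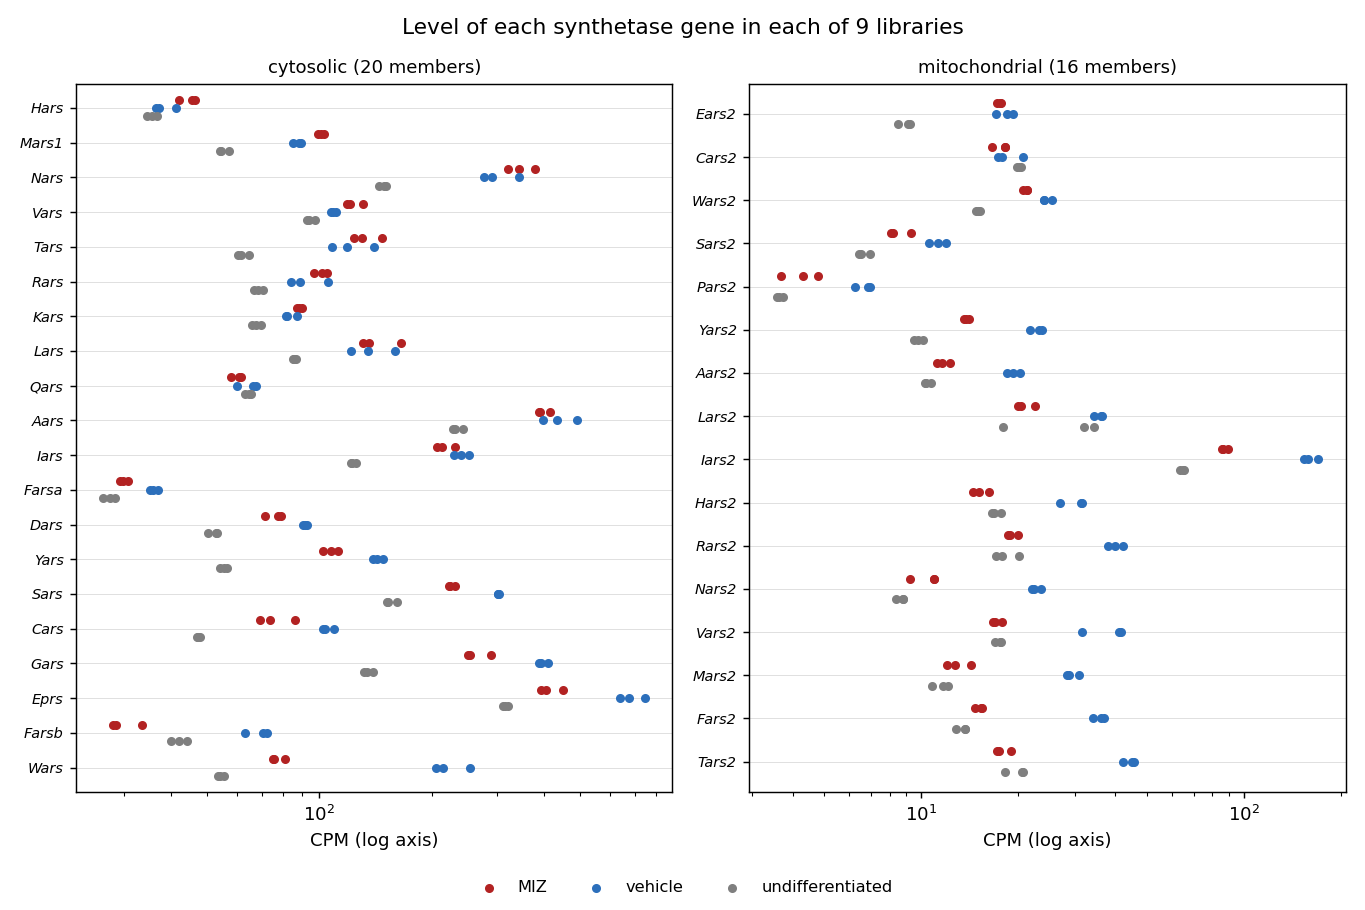
CPM (log axis) of each of the 20 cytosolic (left) and 16 mitochondrial (right) synthetase genes in 9 libraries, with red points for MIZ, blue for vehicle and gray for undifferentiated cells. Genes run from the highest log2 fold change of MIZ against vehicle at the top to the lowest at the bottom, where the blue points of Wars (206 to 254 CPM) and Tars2 (42.2 to 45.7 CPM) stand apart from the others.

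Most mitochondrial synthetase genes were lower in level than most cytosolic ones, between 3.57 and 170.3 CPM over all libraries, against 26.4 and 747 CPM. The classes overlapped, since in vehicle Iars2 had a mean of 161 CPM and Farsa of 35.9 CPM. Per kilobase of exon Iars2 and Rars2, for isoleucine and arginine, had the highest levels of this class in all 3 groups. The lowest in MIZ-treated and undifferentiated cells was Mars2, and the lowest in vehicle was Pars2.

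The strongest fall with MIZ was in Tars2, for threonine (chr3:95739976-95760206, minus strand), at 17.4, 17.2 and 18.9 CPM in MIZ-treated cells, against 42.2, 45.7 and 45.2 CPM in vehicle and 18.2, 20.7 and 20.6 CPM in undifferentiated cells. Its log2 fold change was -1.32 against vehicle (standard error 0.0674, edgeR adjusted p = 1.63e-08), and the MIZ libraries overlapped with those of undifferentiated cells. Against undifferentiated cells Tars2 differed by -0.15 (edgeR adjusted p = 0.0647), and it passed as lower without undifferentiated replicate 1 (-0.22), without MIZ replicate 3 (-0.20) and without vehicle replicate 1 (-0.16). Fars2, for phenylalanine (chr13:36117412-36726280, plus strand), had 15.4, 15.3 and 14.8 CPM in MIZ-treated cells, against 36.8, 34.1 and 36.2 CPM in vehicle and 12.9, 13.7 and 13.7 CPM in undifferentiated cells (-1.23, standard error 0.0559, edgeR adjusted p = 6e-09). It showed the largest rise of the mitochondrial class in vehicle, by 1.41. Mars2, for methionine, had 12.1, 12.8 and 14.3 CPM in MIZ-treated cells, against 30.9, 28.3 and 28.6 CPM in vehicle and 11.7, 12.2 and 10.8 CPM in undifferentiated cells (-1.17, standard error 0.0779, edgeR adjusted p = 1.49e-07).

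Vars2, Nars2 and Rars2 followed with log2 fold changes of -1.15, -1.13 and -1.06 (standard errors 0.0947, 0.0783 and 0.0709). Vars2, for valine, had 17.9, 16.9 and 16.7 CPM in MIZ-treated cells, against 31.6, 41.0 and 41.5 CPM in vehicle and 16.9, 17.7 and 17.5 CPM in undifferentiated cells. In Vars2 vehicle replicate 1 lay well below the other vehicle libraries, the opposite of its place in Nars, Tars and Aars. Nars2, for asparagine, had 11.0, 9.23 and 10.9 CPM in MIZ-treated cells, against 22.4, 23.6 and 22.0 CPM in vehicle and 8.34, 8.79 and 8.79 CPM in undifferentiated cells. Rars2, for arginine, had 18.7, 18.9 and 19.9 CPM in MIZ-treated cells, against 42.3, 40.0 and 38.0 CPM in vehicle and 17.8, 20.2 and 17.1 CPM in undifferentiated cells. In each of these 6 genes all MIZ libraries were below all vehicle libraries, while MIZ and undifferentiated libraries overlapped or lay close together.

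Hars2, Iars2, Lars2, Aars2, Yars2 and Pars2, for histidine, isoleucine, leucine, alanine, tyrosine and proline, fell by between 0.66 and 0.97 on the log2 scale with MIZ, and their means were 4.27 to 87.0 CPM in MIZ-treated cells, 6.70 to 161 CPM in vehicle and 3.64 to 64.6 CPM in undifferentiated cells. Lars2 differed from the rest in its spread, with 20.4, 22.6 and 19.9 CPM in MIZ-treated cells, 36.4, 36.1 and 34.3 CPM in vehicle and 34.4, 32.0 and 17.99 CPM in undifferentiated cells, and vehicle against undifferentiated cells did not pass for it (0.34, standard error 0.186, edgeR adjusted p = 0.112). Undifferentiated replicate 3 was the low library, and without it Lars2 was lower in MIZ-treated than in undifferentiated cells (-0.67, edgeR adjusted p = 3.42e-05), whereas with it the difference was -0.42 (edgeR adjusted p = 0.0728). Without undifferentiated replicate 1 Lars2 was higher in vehicle than in undifferentiated cells (0.51, edgeR adjusted p = 0.0364).

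Sars2 and Wars2, for serine and tryptophan, fell least among the mitochondrial genes that passed. Sars2 had 8.20, 9.29 and 8.10 CPM in MIZ-treated cells, against 11.9, 10.6 and 11.3 CPM in vehicle and 6.95, 6.54 and 6.43 CPM in undifferentiated cells (-0.40, standard error 0.0858, edgeR adjusted p = 0.00161). Wars2 had 20.7, 21.3 and 21.2 CPM in MIZ-treated cells, against 24.0, 25.4 and 24.0 CPM in vehicle and 15.2, 15.0 and 14.8 CPM in undifferentiated cells (-0.22, standard error 0.0518, edgeR adjusted p = 0.00303). In both genes MIZ lay between the other groups with no overlap, and Wars2 did not pass when scaled to total counts (-0.08, edgeR adjusted p = 0.194).

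Ears2 and Cars2 were the mitochondrial genes that did not pass between MIZ and vehicle. Ears2, which charges glutamate and whose product feeds the amidotransferase for glutaminyl-tRNA, had 17.2, 17.6 and 17.5 CPM in MIZ-treated cells, against 19.3, 18.5 and 17.1 CPM in vehicle and 9.13, 9.26 and 8.48 CPM in undifferentiated cells. Both differentiated groups were above the undifferentiated cells in every library, and its 0.96 for MIZ against undifferentiated cells (standard error 0.0690, edgeR adjusted p = 4.21e-07) was the highest of the mitochondrial class, while MIZ against vehicle was -0.07 (0.07 when scaled to total counts). Cars2, for cysteine, had 16.6, 18.2 and 18.2 CPM in MIZ-treated cells, against 20.7, 17.3 and 17.8 CPM in vehicle and 20.3, 19.9 and 20.1 CPM in undifferentiated cells. Its log2 fold change was -0.07 for MIZ against vehicle (0.07 when scaled to total counts and 0.00 without vehicle replicate 1) and -0.12 for vehicle against undifferentiated cells. Cars2 was lower in MIZ-treated than in undifferentiated cells (-0.19, edgeR adjusted p = 0.0447), but the adjusted p lay between 0.0503 and 0.159 when any 1 MIZ or undifferentiated library was left out.

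Against undifferentiated cells, the mitochondrial genes that were higher with MIZ were Ears2 (0.96), Wars2 (0.49), Yars2 (0.49), Iars2 (0.43), Sars2 (0.36), Nars2 (0.27) and Fars2 (0.18). Nars2 did not pass without MIZ replicate 1 (0.22, edgeR adjusted p = 0.0512) or without undifferentiated replicate 1 (0.23, edgeR adjusted p = 0.0518), and Fars2 did not pass without undifferentiated replicate 1 (0.14, edgeR adjusted p = 0.0749). Aars2 (0.16), Mars2 (0.18) and Pars2 (0.23) did not pass, and each of them did without 1 of the libraries, Aars2 without MIZ replicate 2 (0.19) or vehicle replicate 1 (0.16), and Mars2 (0.23) and Pars2 (0.33) without MIZ replicate 1. Hars2 (-0.16) passed as lower without vehicle replicate 1 (edgeR adjusted p = 0.0254). The share of counts from the mitochondrial chromosome itself was 0.765% ± 0.0750 in MIZ-treated, 4.35% ± 0.60 in vehicle and 0.863% ± 0.0272 in undifferentiated cells (SD, n = 3 each). Leaving the mitochondrially encoded genes out of the fit kept the call of all 36 genes in all 3 comparisons, with the exception of Farsa between MIZ-treated and undifferentiated cells (edgeR adjusted p = 0.0584).

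The cytosolic and mitochondrial genes for the same amino acid were set against each other within each library, where scaling between libraries has no effect. The ratios were taken from CPM per kilobase of exon. Division by length moves the log2 ratio of a pair by the same amount in every library. The log2 ratio of Tars to Tars2 was 3.07, 3.15 and 3.19 in MIZ-treated cells, against 1.96, 1.61 and 1.49 in vehicle and 2.07, 1.77 and 1.81 in undifferentiated cells. Mars1 to Mars2 was at 4.79, 4.68 and 4.57 in MIZ-treated cells, against 3.23, 3.38 and 3.29 in vehicle and 4.02, 3.88 and 4.06 in undifferentiated cells. The mean difference of MIZ minus vehicle was 1.45 for the threonine pair and 1.38 for the methionine pair, and the MIZ libraries were above all others in both. The asparagine, valine, arginine and histidine pairs followed, with differences of 1.33, 1.32, 1.19 and 1.18, and those of leucine, isoleucine, alanine and tyrosine were 0.82, 0.74, 0.58 and 0.31. In all 10 of these pairs no MIZ library fell in the range of vehicle. For single genes, the libraries of MIZ and vehicle were apart in 72.8% of all genes. The share over other pairs of genes was not counted, so that separation of the pairs here and below is a description only. For phenylalanine the outcome depended on the subunit, with 0.97 for Farsa to Fars2 and 0.04 for Farsb to Fars2, where the libraries overlapped.

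The tryptophan, glutamate and cysteine pairs moved the other way. Wars to Wars2 was at 2.65, 2.61 and 2.72 in MIZ-treated cells, against 4.19, 3.87 and 3.89 in vehicle and 2.62, 2.63 and 2.69 in undifferentiated cells, a difference of -1.32 between MIZ and vehicle with MIZ-treated cells at about the level of undifferentiated ones. Eprs to Ears2 was at 2.70, 2.71 and 2.87 in MIZ-treated cells, against 3.46, 3.38 and 3.42 in vehicle and 3.32, 3.28 and 3.38 in undifferentiated cells (-0.66). Cars to Cars2 was at 2.20, 2.16 and 2.37 in MIZ-treated cells, against 2.54, 2.72 and 2.66 in vehicle and 1.36, 1.40 and 1.36 in undifferentiated cells (-0.40). In these 3 pairs MIZ and vehicle were apart in every library, while the serine pair and Eprs to Pars2 overlapped, with differences of -0.02 and -0.07. A ratio shows that the genes of a pair changed unequally and not which of them changed.

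**Figure D4:**
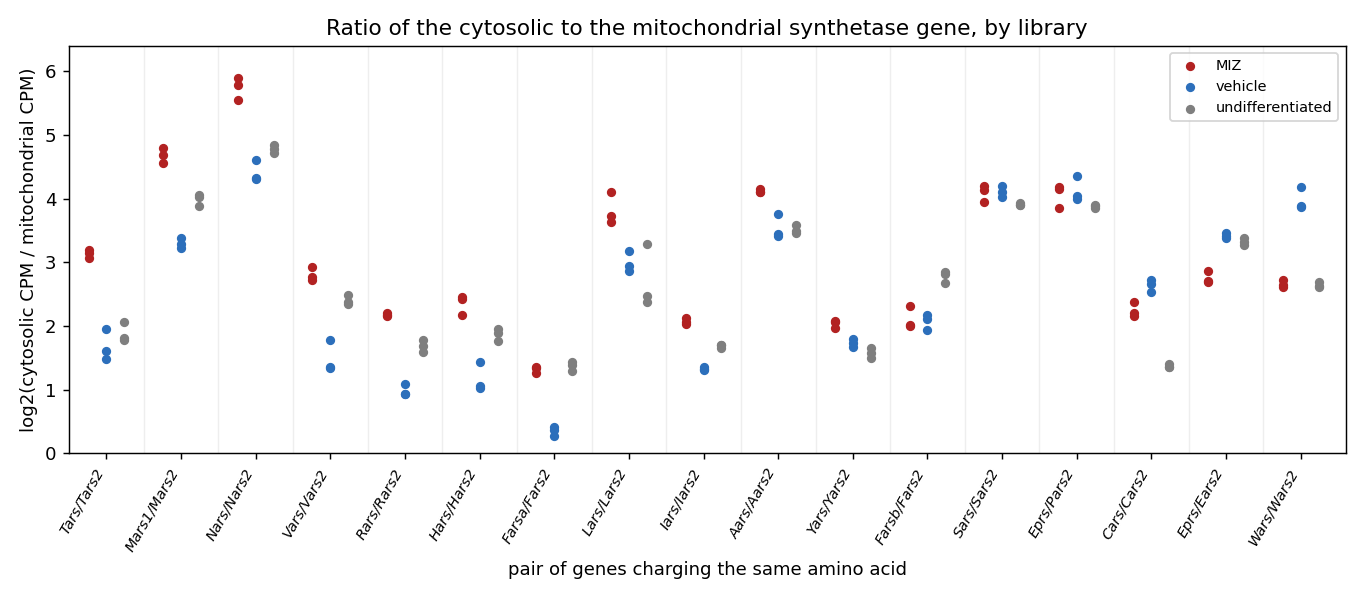
Log2 ratio of the cytosolic to the mitochondrial synthetase gene for each amino acid with both genes. Ratios are of CPM per kilobase of exon, although the axis label names CPM alone. Points are 3 libraries each of MIZ-treated (red), vehicle (blue) and undifferentiated (gray) cells, with pairs ordered by the difference between MIZ and vehicle. The ratio is higher with MIZ at the left, with 3.07 to 3.19 against 1.49 to 1.96 in vehicle for Tars to Tars2, and lower with MIZ at the right, with 2.61 to 2.72 against 3.87 to 4.19 in vehicle for Wars to Wars2.

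The proteins that work next to the synthetases were read from the same fit. All 3 scaffolds of the multisynthetase complex, Aimp1, Aimp2 and Eef1e1, were higher with MIZ than with vehicle, beside 35.9% of all genes, with a median of 0.33. Eef1e1 was at 25.1 ± 1.91 CPM in MIZ-treated, 19.1 ± 0.223 CPM in vehicle and 10.3 ± 0.801 CPM in undifferentiated cells, and Aimp1 at 34.4 ± 0.932, 27.3 ± 0.339 and 24.5 ± 0.770 CPM (SD, n = 3 each). Tarsl2, a cytosolic paralog of Tars outside the 36, and genes of proteins that clear mischarged tRNA or resemble them (Aarsd1, Prorsd1, Dtd1 and Dtd2) were lower in 5 of 5, beside 35.1% of all genes, with a median of -0.55. Tarsl2 was at 3.48 ± 0.0802 CPM in MIZ-treated cells, against 16.9 ± 1.65 CPM in vehicle and 5.24 ± 0.570 CPM in undifferentiated cells (SD, n = 3 each), a log2 fold change of -2.28 between MIZ and vehicle (standard error 0.109, edgeR adjusted p = 9.06e-09), where Tars itself did not pass. Prorsd1 had -0.68 (standard error 0.0705).

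Most of the listed genes that act on mitochondrial tRNAs and ribosomes were lower with MIZ than with vehicle, a call that 35.1% of all genes had. Of the 4 genes of tRNA amidation and formylation 3 were lower with MIZ and none higher (median -0.85), with -1.05 for Gatb and -1.0 for Qrsl1, subunits of the glutamyl-tRNA amidotransferase, and 0.04 for Mtfmt, the formyltransferase of the initiator tRNA, which did not pass. Genes of mitochondrial tRNA processing and modification were lower in 14 of 14 (median -0.93), such as Osgepl1 (-1.33, standard error 0.0791), which modifies a base next to the anticodon, and Hsd17b10 (-1.33, standard error 0.0558), a subunit of the RNase P that cuts tRNAs from the mitochondrial transcript. Mitochondrial translation factors were lower in 9 of 10 (median -1.05). The ribosome recycling factor Gfm2 was at 20.1 ± 1.69 CPM in MIZ-treated, 72.1 ± 1.59 CPM in vehicle and 22.7 ± 1.38 CPM in undifferentiated cells, and the elongation factor Gfm1 at 49.0 ± 1.76, 141 ± 3.67 and 33.3 ± 0.723 CPM (SD, n = 3 each).

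Cytosolic elongation factors and their partners were higher with MIZ than with vehicle in 5 of 7 and lower in 1 (median 0.25), beside 35.9% and 35.1% of all genes. Eef1g and Eef1d, subunits of the exchange factor that reloads eEF1A for the delivery of charged tRNA, rose by 0.93 (standard error 0.0509) and 0.80 (standard error 0.0414) on the log2 scale, and Eef1akmt1, a methyltransferase of eEF1A, had -0.36 (standard error 0.0709).

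Targets of ATF4 and of the amino acid response were set beside the cytosolic synthetases because several cytosolic synthetase genes are known ATF4 targets. Of 28 genes outside the 36, Atf4 included, MIZ lowered 16 and raised 3 relative to vehicle (median -0.42), 25 were higher in vehicle than in undifferentiated cells (median 1.46) and 25 were higher in MIZ-treated than in undifferentiated cells (median 1.17). Over all genes these calls were made for 35.1%, 35.9%, 36.2% and 33.7%, in the order given. Stc2, a secreted glycoprotein, and Vldlr, a lipoprotein receptor, had the largest falls with MIZ (-2.27, standard error 0.0797, and -2.21, standard error 0.0633), and Slc1a4, a carrier of neutral amino acids, the largest rise (0.67, standard error 0.0943). Atf4 itself was at 243, 239 and 242 CPM in MIZ-treated cells, against 358, 349 and 339.7 CPM in vehicle and 149, 144 and 145 CPM in undifferentiated cells (-0.53 for MIZ against vehicle, standard error 0.0399, edgeR adjusted p = 4.09e-07). MIZ lay between the other groups for Atf4, as it did for the cytosolic sum and for the mitochondrial sum, and a link between them was not tested.

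Among 12 amino acid sensing kinases and regulators of mTORC1, 6 were higher and 3 lower with MIZ than with vehicle (median 0.07), beside 35.9% and 35.1% of all genes. Castor1, an arginine sensor, was at 12.6 ± 1.10 CPM in MIZ-treated, 3.07 ± 0.610 CPM in vehicle and 10.3 ± 0.707 CPM in undifferentiated cells, and Rragd, a Rag GTPase, at 2.70 ± 0.135, 8.89 ± 2.25 and 20.98 ± 0.0634 CPM (SD, n = 3 each). Rragb passed as higher from between 0 and 0.682 CPM over the 9 libraries and is given no fold change. Of 10 tested interferon-inducible genes, the family to which Wars also belongs, MIZ lowered 7 and raised 1 relative to vehicle (median -1.0), beside 35.1% and 35.9% of all genes, and 9 were higher in vehicle than in undifferentiated cells (median 1.68), beside 36.2%. Ifit3 had 24.7, 21.9 and 9.84 CPM in MIZ-treated cells, against 82.6, 37.5 and 39.1 CPM in vehicle and 11.8, 12.2 and 11.1 CPM in undifferentiated cells. Vehicle replicate 1 was the highest library for Ifit3 and for Wars. It was also the highest for the cytosolic sum and for Eprs, so this place is not particular to interferon-inducible genes. A link of Wars to these genes was not tested. Ifit1 had -1.25 (standard error 0.348) and Ifi27l2a 0.70 (standard error 0.133) for MIZ against vehicle. Ido1 was left out by the filter.

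**Figure D5:**
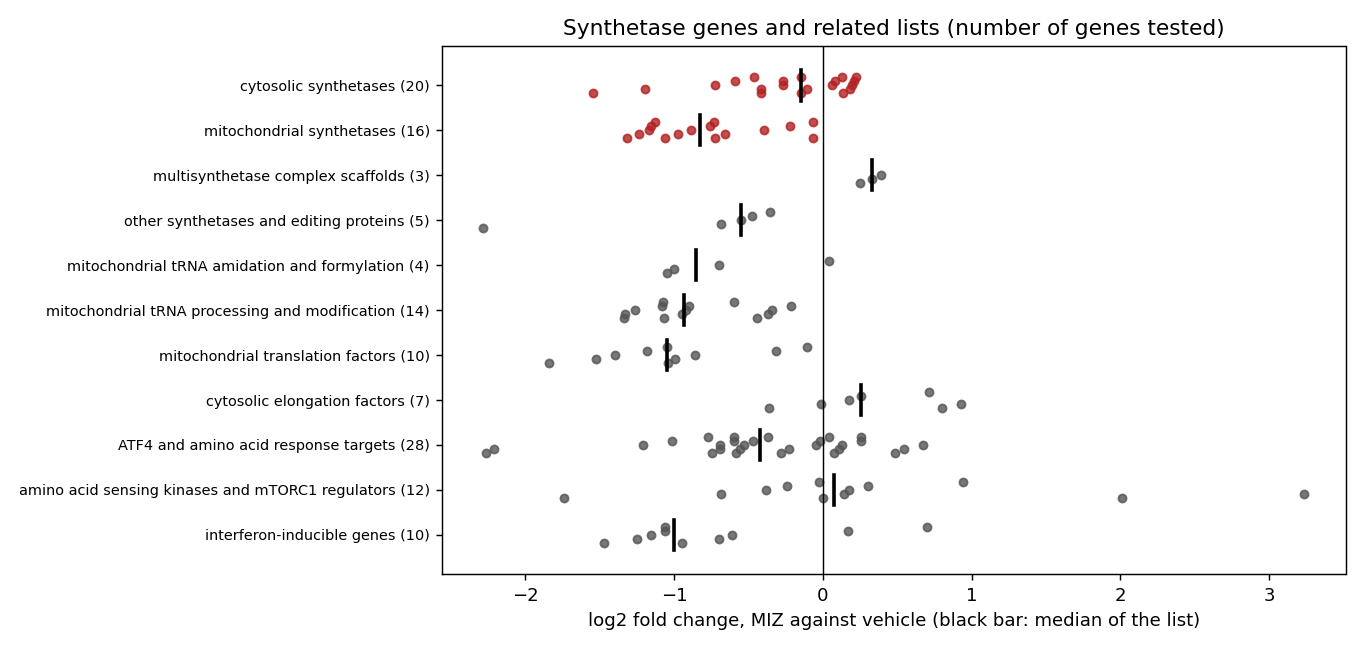
Log2 fold change of MIZ against vehicle for the cytosolic and mitochondrial synthetase genes (red) and for related lists (gray), with 1 point for each gene tested and a black bar for the median of each list. The point farthest right is Rragb, at 0 to 0.682 CPM, whose place rests on few counts. Medians of the mitochondrial lists lie between -1.05 and -0.82, those of the scaffolds and of the cytosolic elongation factors at 0.33 and 0.25, and that of the cytosolic synthetases at -0.15.

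Several members share exon sequence with other genes, and the strand setting of the counting was not given in the sources used here, so their values are uncertain to that extent. Aars shares 1326 bases on its own strand with Exosc6. On the opposite strand Iars2 shares 2034 bases with Rab3gap2, Fars2 501 bases with Nrn1, Vars2 465 bases with Gm20483, Cars2 422 bases with Naxd, Nars2 284 bases with C230038L03Rik, Farsb 248 bases with Sgpp2 and Cars 211 bases with Gm15580. Hars and Hars2 lie head to head and share 195 bases, while the overlaps of Ears2, Mars1 and Yars are of 89, 68 and 30 bases. Iars has a processed pseudogene, Gm4849, with 96.0% identity over 1656 bases, which the count tables do not list. Similar stretches were also found in genes at other loci, for Eprs in 73 genes (up to 207 bases), for Yars in 25 (up to 221 bases) and for Cars2 in 1 (171 bases).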

How the data were processed

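Total RNA was depleted of ribosomal RNA, and the paper's methods also name a poly-A selection of mRNA. Libraries were sequenced as paired reads. By the paper's methods and the submitters' processing notes, the authors trimmed reads with Trim Galore 0.6.7, aligned them to mm10 with STAR and deposited 1 table of raw, unnormalized gene counts for each library. The methods name STAR for the counting and the notes name HTSeq, and the annotation release and strand setting of the counting are not given in the sources used here.

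Symbols, positions and exon lengths came from GENCODE M21 (GRCm38), which named 32158 of 32285 identifiers. Genes past the minimum of 5 counts in 3 or more libraries were fitted with edgeR 4.0.16 (R 4.3.3, limma 3.58.1), as a quasi-likelihood model with TMM factors over all 9 libraries and 3 contrasts. The biological coefficient of variation was 0.0806. The pipeline was tested on simulated data in which few genes changed, whereas most genes passed between the groups here, a setting that was not simulated. With 3 libraries a group, precision was judged from their spread, and an exact permutation test could not go below 0.1. Levels per kilobase are CPM over the union of annotated exons, which can include retained introns. Members and gene lists were chosen with earlier results of these data known. Members named with values of each library are, per class, the 6 largest changes between MIZ and vehicle, the 2 highest and 2 lowest of each other comparison, those that did not pass and those against their class; in each list, the 2 largest changes in its main direction and the largest in the other. Shared sequence was searched with blastn 2.17.0. Alternatives were RLE and total-count scaling, other filters, DESeq2 1.42.0, a replicate block, fits of 6 libraries, fits without mitochondrially encoded genes and fits without each library. Figures used Python 3.11.15 and matplotlib 3.10.9. A gene of a related list is not reported here.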

Additional observations from a re-analysis of the deposited data

How the results depend on the processing

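Of the 108 log2 fold changes of members, each alternative kept the direction and the side of the threshold of between 90 (total-count scaling) and 107 (without mitochondrially encoded genes), and 97 without vehicle replicate 1. With total-count scaling, 7 cytosolic genes were higher between MIZ and vehicle in place of 3, 1 cytosolic and 1 mitochondrial gene were lower between vehicle and undifferentiated cells in place of 0, and 2 cytosolic and 3 mitochondrial genes were lower between MIZ-treated and undifferentiated cells in place of 1 and 1, while the mitochondrial genes lower between MIZ and vehicle were 13 in place of 14. The log2 fold changes of Qars (0.0318), Cars2 (0.0707) and Ears2 (0.0727) between MIZ and vehicle and those of Hars (-0.0723) and Qars (-0.18) between vehicle and undifferentiated cells changed sign there. That scaling shifts every gene between groups by the same amount, with medians of all genes of 0.16 for MIZ against vehicle, -0.25 for vehicle against undifferentiated and -0.04 for MIZ against undifferentiated cells. The share of higher genes among those called was 58.7%, 38.3% and 47.0% under it, and 50.5%, 46.6% and 50.3% with TMM.

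The count of mitochondrial genes lower in MIZ-treated than in undifferentiated cells was 0 with RLE scaling and with DESeq2, 2 without a filter, 2 with a stricter filter and 2 in a fit of only the 6 libraries compared, where the count of lower cytosolic genes was also 2. Vars2 had 0.0077 with RLE scaling and 0.0076 with DESeq2 in that comparison, and Qars -0.0007 between vehicle and undifferentiated cells without a filter. Calls near the threshold moved in Qars, Hars, Aars2, Mars2 and Cars2 with RLE scaling, in Qars, Aars2 and Cars2 with DESeq2, in Nars, Farsa, Fars2 and Lars2 without a filter, in Farsa and Tars2 with a stricter filter, and in Iars, Hars, Farsa, Qars and Hars2 in fits of 6 libraries. The mitochondrial genes higher in MIZ-treated than in undifferentiated cells, 7 with TMM, were 9 with RLE scaling and 8 with DESeq2. The ratios of sums were 10.91 in MIZ-treated, 7.467 in vehicle and 7.734 in undifferentiated cells per length of exon. The cause of the other changes was not tested.

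Without each library in turn, the cytosolic genes higher between MIZ and vehicle numbered 3 to 7, with 7 only without vehicle replicate 1. Mitochondrial genes lower between vehicle and undifferentiated cells numbered 0 to 1, and between MIZ-treated and undifferentiated cells the lower cytosolic genes numbered 1 to 2, the lower mitochondrial genes 0 to 3 and the higher mitochondrial genes 5 to 8. Qars between vehicle and undifferentiated cells ranged up to 0.0579 (without vehicle replicate 1), and was -0.0214 without undifferentiated replicate 3, -0.0169 without vehicle replicate 2, -0.0024 without vehicle replicate 3 and -0.0022 without undifferentiated replicate 1. Cars2 between MIZ and vehicle was between -0.1328 without vehicle replicate 2 and 0.0035 without vehicle replicate 1, and Lars was -0.061 without MIZ replicate 3 and -0.0451 without vehicle replicate 3.

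Libraries of the same number did not deviate together (correlations of -0.045 to 0.063), and they were not treated as pairs. With 3 libraries a group and all tested genes in the correlation, this cannot exclude that same-numbered libraries share an animal. A replicate block moved the call of 3 of 108 member values and gave 6093 higher and 5927 lower genes between MIZ and vehicle. With 3 libraries a group, differences as small as those of Nars, Aars and Qars could not be placed firmly on either side of the threshold.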
